A study of Mus musculus with 10 samples.

Results

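The heat shock proteins and their co-chaperones were followed in the tibialis anterior, which lies at the front of the shin and is built mostly of fast fibres. Members were chosen by symbol: the Hspa, Hspb, Hspd, Hspe and Hsph genes, the Hsp90 genes, the Dnaja, Dnajb and Dnajc genes, Hsf1, Hsf2 and Bag1 to Bag6. The rule found 71 of the 13492 genes in the deposited table. They comprise 7 small heat shock proteins, 14 HSP70 and HSP110 genes, 3 HSP90 genes, 2 HSP60 and HSP10 genes, 37 HSP40 genes, 2 heat shock factors and 6 BAG co-chaperones.

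The 10 libraries came from 6-month-old C57BL/6 mice after a fast of 3 h, 5 labelled Lrtm1 knockout (KO) and 5 labelled wild type (WT), which are floxed controls. The labels give 3 litters. Litter 108 gave KO replicates 1 and 2 with WT replicate 1, litter 110 gave KO replicate 3 with WT replicates 3 and 4, and litter 112 gave KO replicates 4 and 5 with WT replicates 5 and 6. The sources used here do not name what removes the floxed segment or in which cells. The series' design text gives 4 mice a group where the labels give 5, and all 10 libraries were used. Levels are given as the authors' adjusted log2 CPM (read counts scaled to the library total, on a log2 scale) or, converted back, as CPM, and a difference of 1 log2 is a doubling.

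Heat shock proteins bind unfolded or partly folded proteins and keep them from aggregating. Small heat shock proteins hold such clients without using ATP, HSP70 folds them in cycles of ATP use that HSP40 (J-domain) partners start and BAG or HSP110 proteins end by nucleotide release, and HSP90 finishes the maturation of kinases, receptors and myosin. The heat shock factor HSF1 switches on the stress-inducible members when unfolded protein builds up, and in contracting muscle the small heat shock proteins, HSPA8 and BAG3 together serve the turnover of damaged Z-disc proteins.

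The targeted gene went against the labels. Lrtm1 stood at 6.20, 6.12, 6.10, 5.97 and 6.21 log2 CPM in the libraries labelled KO (replicates 1 to 5), against 5.61, 5.66, 5.73, 5.65 and 5.78 log2 CPM in the libraries labelled WT (replicates 1, 3, 4, 5 and 6). Its level was thus higher in the libraries labelled KO, by 0.44 ± 0.07 log2 (SE; limma, Benjamini-Hochberg adjusted p = 0.0344). It missed the threshold without a variance trend (adjusted p = 0.315), without WT replicate 1 (0.143), 5 (0.0787) or 6 (0.0529) and without KO replicate 3 (0.0789), with the difference above 0 in each case. Levels per exon were not used here, so a transcript that lacks a deleted exon could not be told from an intact one, and each direction given below refers to libraries by their labels. Whether the labels are exchanged was not tested, and an exchange would turn every direction. Fast fibre markers summed to 100700 to 103800 CPM in the libraries labelled KO and 91770 to 104900 CPM in those labelled WT, and slow fibre markers to 62.4 to 74.4 CPM and 58.5 to 72.7 CPM in the same order, as a fast muscle would give.

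Promoter sequences are shown for 5 members that passed only in the less strict fit described below. They are also shown for 3 members with the highest log2 CPM of their family or HSP40 class, and each window holds a match. HSF1 binds repeats of a 5-base unit, and 2 units facing each other read GAANNTTC or TTCNNGAA, where N is any base. These letters read the same on both strands and were searched in the 300-base window from 250 bases before to 50 bases after each annotated start (RefSeq, GRCm38.p6), which 57 of the 71 members have. At least 1 pair was present in 16 of the 57 members (28.1%), against 15.1% of all 32851 windows and 14.2% of the 9417 tested genes with a window. A run of 3 alternating units (GAANNTTCNNGAA or TTCNNGAANNTTC, each of which also holds 2 overlapping pairs) was present in 4 of 57 members (7.02%: Dnajb6, Hspd1, Hspe1 and Hsph1). Such a run was present in 0.603% of all windows and in 0.637% of the 9417 tested genes with a window. Hspd1 and Hspe1 are divergent neighbours whose windows share 285 bases, so their matches are the same bases counted in both. A member was counted if any of its windows held a match. Where a gene has several annotated starts, the window with the most matches is shown, and other windows of Dnaja1, Hspd1 and Hspb6 hold no match. The windows below are written 5′ to 3′ on the strand of the gene, with the matched units in capitals. A match describes the letters of the window and is not evidence of binding.

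The Hspa1a window (chr17:34972107-34972406, minus strand) and the Hspa1b window (chr17:34959189-34959488, minus strand) belong to the inducible HSP70 pair and are identical at 296 of 300 bases (98.7%), with the match 104 bases before the start in both. Dnaja1 (chr4:40722218-40722517, plus strand) encodes a cytosolic HSP40 and has its match 124 bases before the start. Hsph1 (chr5:149636266-149636565, minus strand) encodes HSP110 and has a pair 54 bases before the start and a run of 3 units just after it. Hspb8 (chr5:116422815-116423114, minus strand) encodes a small heat shock protein that works with BAG3 and has its match 2 bases after the start. Hspd1 (chr1:55087883-55088182, minus strand), the mitochondrial HSP60, holds 4 alternating units in a row. Hspb6 (chr7:30553051-30553350, plus strand), a small heat shock protein of muscle, and Dnajc27 (chr12:4082324-4082623, plus strand), a class C member, have their matches 120 and 213 bases before the start. The last 3 are shown because they hold a match and have the highest log2 CPM of their family or HSP40 class. Their RNA levels were also close in both groups.
Hspa1a: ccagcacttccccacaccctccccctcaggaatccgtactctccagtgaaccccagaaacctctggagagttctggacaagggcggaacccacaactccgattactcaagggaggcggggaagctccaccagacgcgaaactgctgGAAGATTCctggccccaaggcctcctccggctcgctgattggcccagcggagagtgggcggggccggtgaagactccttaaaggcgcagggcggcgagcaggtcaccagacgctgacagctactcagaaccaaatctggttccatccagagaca
Hspa1b: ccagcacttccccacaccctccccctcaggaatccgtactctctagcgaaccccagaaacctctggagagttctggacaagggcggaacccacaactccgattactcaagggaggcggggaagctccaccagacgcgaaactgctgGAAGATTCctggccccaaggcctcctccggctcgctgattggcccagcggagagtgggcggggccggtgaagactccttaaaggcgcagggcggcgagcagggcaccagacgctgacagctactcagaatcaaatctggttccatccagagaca
Dnaja1: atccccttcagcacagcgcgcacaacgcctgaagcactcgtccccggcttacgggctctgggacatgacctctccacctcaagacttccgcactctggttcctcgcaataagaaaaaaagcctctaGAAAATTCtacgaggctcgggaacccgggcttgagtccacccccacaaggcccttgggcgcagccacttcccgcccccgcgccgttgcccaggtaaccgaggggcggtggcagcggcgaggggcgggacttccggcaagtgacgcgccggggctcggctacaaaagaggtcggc
Hsph1: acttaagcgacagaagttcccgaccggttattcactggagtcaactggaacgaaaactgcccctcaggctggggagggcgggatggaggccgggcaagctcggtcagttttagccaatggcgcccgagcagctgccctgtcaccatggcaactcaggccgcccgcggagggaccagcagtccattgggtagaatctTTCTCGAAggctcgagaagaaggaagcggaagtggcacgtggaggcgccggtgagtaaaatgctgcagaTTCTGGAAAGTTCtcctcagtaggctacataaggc
Hspb8: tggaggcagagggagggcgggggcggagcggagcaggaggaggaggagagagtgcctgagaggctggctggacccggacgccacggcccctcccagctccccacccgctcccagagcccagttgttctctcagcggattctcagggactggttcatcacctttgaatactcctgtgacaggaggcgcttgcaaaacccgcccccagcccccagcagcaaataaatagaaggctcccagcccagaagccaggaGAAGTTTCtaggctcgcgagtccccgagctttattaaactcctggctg
Hspd1: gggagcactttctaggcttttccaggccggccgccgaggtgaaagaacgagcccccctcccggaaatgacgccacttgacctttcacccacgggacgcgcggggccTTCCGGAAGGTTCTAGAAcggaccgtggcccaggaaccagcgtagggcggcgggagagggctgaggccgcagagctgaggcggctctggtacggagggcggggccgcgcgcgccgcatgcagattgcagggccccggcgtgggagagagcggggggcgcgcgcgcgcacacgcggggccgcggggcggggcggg
Hspb6: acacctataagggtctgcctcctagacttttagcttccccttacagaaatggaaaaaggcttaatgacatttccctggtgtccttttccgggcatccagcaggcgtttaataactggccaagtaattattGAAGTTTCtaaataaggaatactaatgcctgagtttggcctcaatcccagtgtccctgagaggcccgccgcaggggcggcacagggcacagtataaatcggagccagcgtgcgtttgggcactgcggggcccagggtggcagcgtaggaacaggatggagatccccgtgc
Dnajc27: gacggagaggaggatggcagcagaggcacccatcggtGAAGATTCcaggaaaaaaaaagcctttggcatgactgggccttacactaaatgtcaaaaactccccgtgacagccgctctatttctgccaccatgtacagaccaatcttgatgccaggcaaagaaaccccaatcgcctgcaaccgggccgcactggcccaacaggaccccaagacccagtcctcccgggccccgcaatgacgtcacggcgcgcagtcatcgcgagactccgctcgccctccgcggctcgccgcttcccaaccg

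No member passed the test between the libraries labelled KO and those labelled WT (limma on the log2 values, Benjamini-Hochberg adjusted over all genes tested). Of the 71 members, 70 had a mean of at least 0 log2 CPM and were tested, and 0 had an adjusted p below 0.05. Over all 12223 genes tested, 0.27% were called higher in the libraries labelled KO and 0.0655% were called lower. Without adjustment, 10 members stood higher at p below 0.05 (14.3% of the 70, against 6.25% of all genes tested) and 4 stood lower (5.71%, against 3.83%). The libraries labelled KO stood all above those labelled WT in 13 members (18.6%, against 8.56% of all genes tested) and all below them in 8 (11.4%, against 7.63%). The smallest adjusted p-values were those of Hsp90aa1 (0.0642) and Hspa1b (0.0697).

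The count depends on how the authors' adjustment is treated. Besides litter, 3 further terms had been removed from the deposited values, and the test above counts them against the residual degrees of freedom. With these terms not counted, 14 members passed, 9 of them higher in the libraries labelled KO (12.9%, against 5.15% of all genes tested) and 5 lower (7.14%, against 3.48%). The 9 were Hsp90aa1, Hspa1b, Hspa1a, Hsph1, Hspa12b, Dnaja1, Hspb8, Dnajc1 and Dnajc13, and the 5 were Dnajc19, Bag5, Dnajc4, Hsf2 and Dnaja2. In simulated data of this design, with 200 of 12223 genes changed, the second fit made a median of 449 false calls among 632.5, against 5 among 134 with the terms counted. The simulated noise was independent between genes, and litter and the 3 terms were taken out with genotype kept, as the first fit assumes. How the authors obtained their terms is not given, so false calls in the deposited values may differ. With the terms counted, 46% of simulated differences of 0.5 log2 and 82.5% of those of 1 log2 were recovered, and most members differed by less than the smaller of these sizes.

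As a group, the members centred on no difference. The median difference over the 70 was -0.01 log2 and that over all genes tested was -0.00 log2, with 31 members above 0 and 39 below. The median size of a difference without its sign was 0.0730 log2 in members and 0.0785 log2 in all genes tested. Summed over the 71 members, RNA came to 6242 ± 118 CPM in the libraries labelled KO and 6142 ± 195 CPM in those labelled WT (SD, n = 5 each). In bulk tissue, fewer cells of a type and less RNA per cell cannot be told apart. Adipocyte markers summed to 1832 to 2115 CPM in the libraries labelled KO and 2040 to 2194 CPM in those labelled WT, and 4 of the 7 tested passed as lower with the removed terms not counted. Fibroblast markers gave 620.7 to 676.3 CPM and 640.4 to 740.2 CPM in the same order, and endothelial markers gave 264.8 to 274.6 CPM and 257.6 to 277.9 CPM. Blood markers gave 151.0 to 168.7 CPM and 156.4 to 179.6 CPM, macrophage and leukocyte markers 43.2 to 45.4 CPM and 44.1 to 47.1 CPM, and Schwann cell markers 53.3 to 111.0 CPM and 69.2 to 99.9 CPM. Satellite cell markers gave 20.0 to 20.9 CPM and 20.3 to 21.1 CPM, and the sums of each list overlapped between the groups. Gene by gene, however, 0 of 7 adipocyte genes had a difference above 0, with a median of -0.89 log2, close in size to the largest member differences. The numbers above 0 were 1 of 7 for fibroblast (median -0.09 log2), 0 of 5 for Schwann cell (-0.14 log2), 1 of 6 for macrophage and leukocyte (-0.10 log2), 3 of 7 for endothelial (-0.04 log2), 1 of 5 for blood (-0.04 log2) and 1 of 4 for satellite cell genes (-0.07 log2). None of these genes passed with the removed terms counted (limma). The part of these markers in the members' values was not tested.

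**Figure D1:**
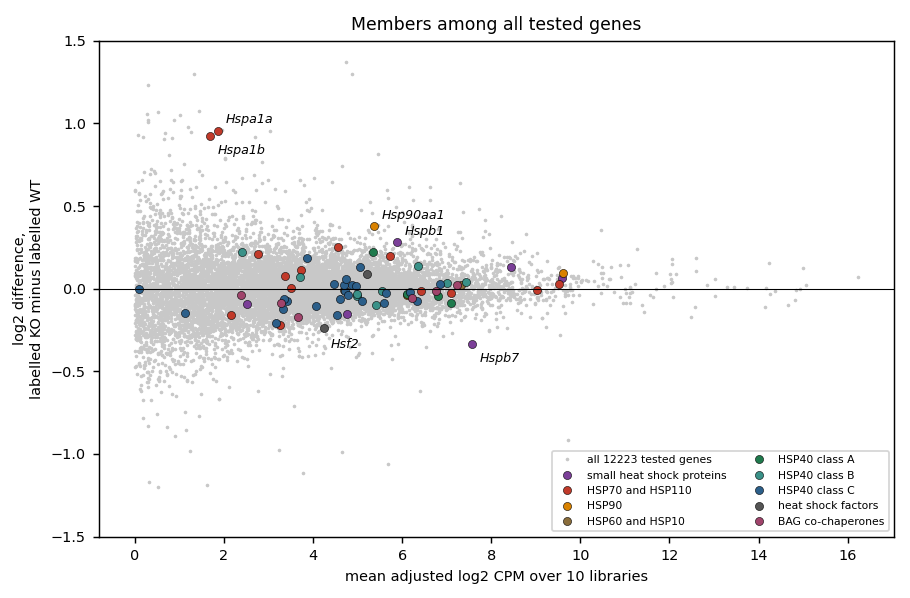
Log2 difference between the libraries labelled KO and those labelled WT (vertical axis) against mean adjusted log2 CPM over the 10 libraries (horizontal axis) for the 12223 genes tested in grey, with the 70 tested members coloured by family; 12 other genes lie outside the drawn range of 1.5 log2. Hspa1a and Hspa1b stand near 0.96 and 0.92 log2, Hspb7 at -0.33 log2, and most members lie within the grey cloud around 0.

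The inducible HSP70 genes had the largest differences of all members. Hspa1a and Hspa1b encode nearly the same stress-induced cytosolic HSP70, which is low in unstressed tissue. Hspa1a stood at 2.14, 2.58, 2.33, 2.42 and 2.28 log2 CPM in the libraries labelled KO (replicates 1 to 5), against 1.38, 1.73, 1.08, 0.77 and 2.01 log2 CPM in the libraries labelled WT (replicates 1, 3, 4, 5 and 6). The groups did not overlap, although WT replicate 6 came close to KO replicate 1. The difference was 0.96 ± 0.24 log2 (SE; adjusted p = 0.181). Within litters it was 0.98, 0.92 and 0.96 log2 in litters 108, 110 and 112. The deposited values lack the variation that the authors removed, so the differences within litters given here and below are not independent of each other.

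Hspa1b stood at 2.30, 2.22, 2.36, 1.88 and 2.01 log2 CPM in the libraries labelled KO, against 1.02, 1.35, 0.91, 1.46 and 1.43 log2 CPM in those labelled WT, in the same replicate order. The groups again did not overlap, with litter 112 giving both the lowest libraries labelled KO and the highest labelled WT. The difference was 0.92 ± 0.18 log2 (SE; adjusted p = 0.0697), and within litters it was 1.24, 1.23 and 0.50 log2. The coding sequences of the 2 genes are identical at 1919 of 1929 aligned bases (99.5%), while the transcripts differ after the stop codon (54.6% identity), so the division of reads between them is uncertain. Their sum came to 9.62 ± 0.762 CPM in the libraries labelled KO and 5.14 ± 1.13 CPM in those labelled WT (SD, n = 5 each), a ratio of 1.87. It adds values that were adjusted on the log2 scale for each gene, so it may still depend on that division. The lowest sum in a library labelled KO was 8.89 CPM and the highest in a library labelled WT was 6.73 CPM.

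Immediate early genes, which can be induced when tissue is handled, summed to 554.0, 503.7, 473.9, 438.0 and 606.7 CPM in the libraries labelled KO and 396.6, 403.4, 481.9, 386.7 and 471.3 CPM in those labelled WT. The mean sum was higher in the libraries labelled KO (515 ± 66.5 CPM against 428 ± 44.9 CPM in those labelled WT, SD). The groups overlapped, with KO replicates 3 and 4 below WT replicate 4. Of the 17 such genes tested, 11 had a difference above 0, with a median of 0.15 log2. Of these 17 genes, 0 passed, and 1 passed as higher with the removed terms not counted (limma). Their part in the Hspa1a and Hspa1b values was not tested.

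**Figure D2:**
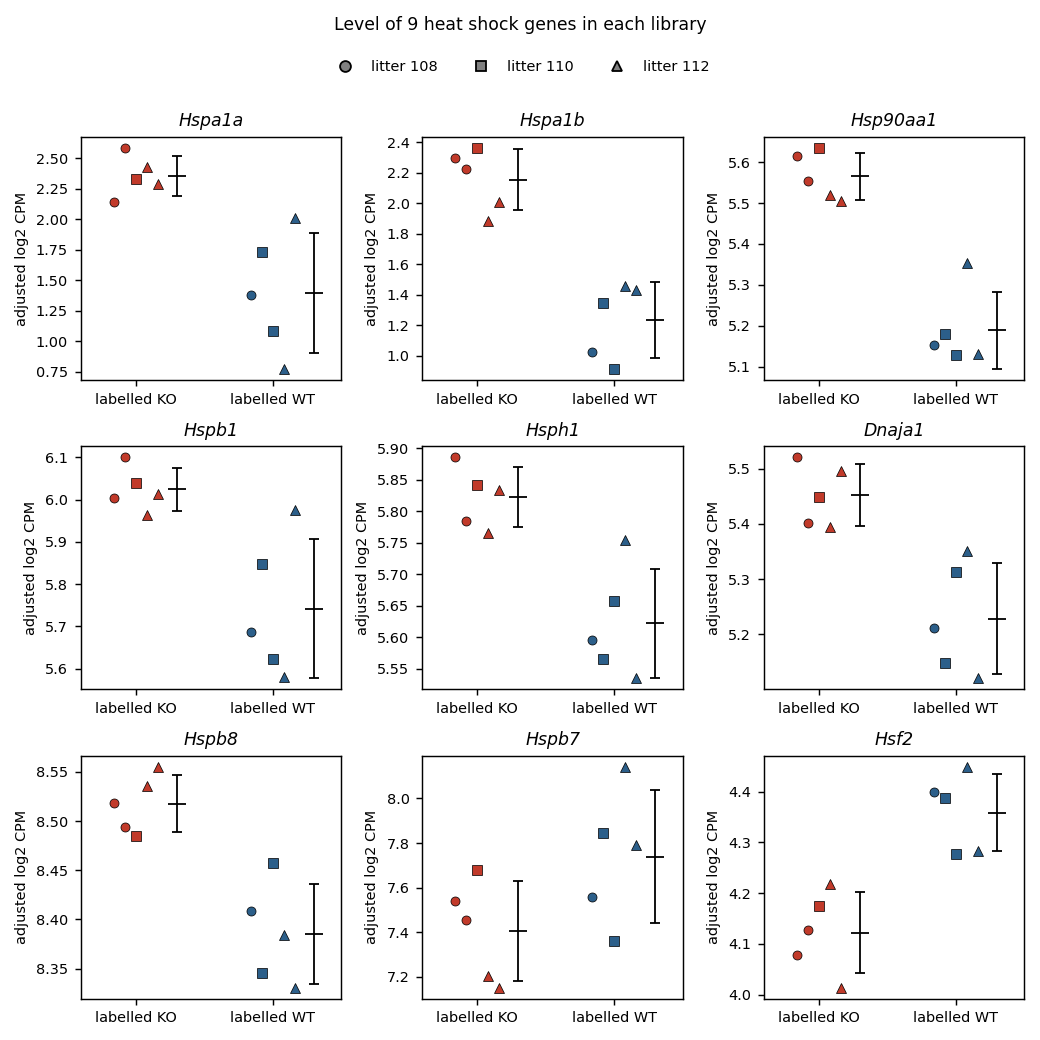
Adjusted log2 CPM (vertical axes, each with its own range) in the 5 libraries labelled KO and, to their right, the 5 labelled WT, for 9 members; each point is a library, with its shape giving the litter and colour the label, and the bars beside the points give the group mean ± SD (n = 5). The groups are separate in Hspa1a, Hspa1b and Hsp90aa1 and overlap in Hspb7, where litter 112 spreads farthest.

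The other HSP70 genes differed far less than the inducible pair. Of the 14 HSP70 and HSP110 genes, 9 had a difference above 0 and 5 below, with a median of 0.05 log2. Hspa8, the constitutive cytosolic HSP70 and the highest of them in CPM, had 744 ± 9.60 CPM in the libraries labelled KO and 731 ± 24.2 CPM in those labelled WT (SD, n = 5 each). Its difference was 0.03 log2, with a 95% interval from -0.10 to 0.15. Hspa9, the mitochondrial HSP70, differed by -0.01 log2, and Hspa5 (BiP), the HSP70 of the endoplasmic reticulum, by -0.03 log2. Per kilobase of annotated transcript, the level of Hspa8 over all libraries was 234 CPM per kb, against 1.33 CPM per kb for Hspa1a and 1.23 CPM per kb for Hspa1b. A level per kilobase assumes reads along the whole transcript. The libraries were oligo-dT primed, and whether reads came mostly from transcript ends is not stated, so an order of genes by level may differ with and without length.

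Hsph1 encodes HSP110, which releases nucleotide from HSP70. It stood at 5.89, 5.79, 5.84, 5.77 and 5.83 log2 CPM in the libraries labelled KO, against 5.60, 5.57, 5.66, 5.75 and 5.53 log2 CPM in those labelled WT. The groups did not overlap, but KO replicate 4 and WT replicate 5, both of litter 112, were almost level. The difference was 0.20 ± 0.07 log2 (SE; adjusted p = 0.327). Its relatives Hspa4 and Hspa4l differed by -0.01 and 0.21 log2 with overlapping groups.

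Hspa12b, a distant HSP70 relative found in endothelium, had 26.0 ± 1.41 CPM in the libraries labelled KO and 21.8 ± 1.57 CPM in those labelled WT, without overlap (0.25 ± 0.08 log2, SE; adjusted p = 0.313). The summed endothelial markers given above overlapped between the groups. Its paralog Hspa12a had 8.86 ± 0.695 CPM in the libraries labelled KO and 10.3 ± 0.738 CPM in those labelled WT, a difference of -0.22 ± 0.10 log2 with overlap. Hspa1l, which neighbours the inducible pair and is 83.3% identical to Hspa1a in its coding sequence, had 3.75 to 3.81 log2 CPM in the libraries labelled KO and 3.58 to 3.73 log2 CPM in those labelled WT, a difference of 0.11 log2 (adjusted p = 0.682). Hspa2, Hspa13 and Hspa14 differed by -0.16, 0.08 and 0.00 log2, each with overlap.

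HSP90 showed its largest difference in the inducible cytosolic gene. Hsp90aa1, which encodes HSP90 alpha and is needed for myosin folding in zebrafish muscle, stood at 5.61, 5.55, 5.63, 5.52 and 5.51 log2 CPM in the libraries labelled KO, against 5.15, 5.18, 5.13, 5.35 and 5.13 log2 CPM in those labelled WT. The groups were clearly separate, and WT replicate 5 stood above the other 4 libraries of its group. The difference was 0.38 ± 0.07 log2 (SE; adjusted p = 0.0642), and it was above 0 in each litter (0.43, 0.48 and 0.27 log2). Without WT replicate 5 it was 0.43 log2 and passed (adjusted p = 0.0399), which was the only case of a member passing when 1 library was left out.

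Hsp90ab1, the constitutive cytosolic HSP90 beta, had far more RNA, with 311 CPM per kb against 12.8 CPM per kb for Hsp90aa1. It stood at 9.67, 9.67, 9.66, 9.63 and 9.66 log2 CPM in the libraries labelled KO, against 9.55, 9.58, 9.55, 9.55 and 9.61 log2 CPM in those labelled WT. The groups did not overlap, yet the difference was only 0.09 ± 0.06 log2 (SE; adjusted p = 0.631). Hsp90b1 (GRP94), the HSP90 of the endoplasmic reticulum, had 67.8 ± 1.91 CPM in the libraries labelled KO and 69.6 ± 3.18 CPM in those labelled WT, with overlap. Summed, the 3 genes gave 909.5 to 930.8 CPM in the libraries labelled KO and 851.4 to 881.7 CPM in those labelled WT, without overlap.

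Some small heat shock proteins were among the most abundant members, while Hspb11 was the lowest of all 71. The family did not share a direction. Of the 6 tested, 3 had a difference above 0 and 3 below, with a median of -0.01 log2, and their summed RNA was 1427 ± 77.9 CPM in the libraries labelled KO and 1400 ± 123 CPM in those labelled WT (SD, n = 5 each). Hspb6 (HSP20), the highest of all 71 members per kilobase (392 CPM per kb) but below Hsp90ab1 in log2 CPM (9.59 against 9.61 over all libraries), differed by 0.07 ± 0.09 log2 with overlap.

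Hspb1 (HSP25 in mouse) protects actin and the Z-disc. It stood at 6.00, 6.10, 6.04, 5.96 and 6.01 log2 CPM in the libraries labelled KO, against 5.69, 5.85, 5.62, 5.58 and 5.98 log2 CPM in those labelled WT. A single library labelled WT, replicate 6, lay within the range of the libraries labelled KO. The difference was 0.28 ± 0.09 log2 (SE; adjusted p = 0.298), and it was 0.37, 0.30 and 0.21 log2 in litters 108, 110 and 112. Its window also holds pairs of units, 117 and 97 bases before the start.

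Hspb8 (HSP22), the partner of BAG3, stood at 8.52, 8.49, 8.49, 8.54 and 8.56 log2 CPM in the libraries labelled KO, against 8.41, 8.35, 8.46, 8.38 and 8.33 log2 CPM in those labelled WT. The groups lay close together without overlap. The difference was 0.13 ± 0.06 log2 (SE; adjusted p = 0.451).

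Hspb7, a cardiac and skeletal muscle member that binds filamin, had the largest negative difference of all members. It stood at 7.54, 7.45, 7.68, 7.20 and 7.15 log2 CPM in the libraries labelled KO, against 7.56, 7.85, 7.36, 8.14 and 7.79 log2 CPM in those labelled WT. The groups overlapped, and the difference was -0.33 ± 0.16 log2 (SE; adjusted p = 0.513). It was -0.79 log2 in litter 112, against -0.06 and 0.08 log2 in litters 108 and 110. Hspb2 and Hspb3, which form a complex in muscle, differed by -0.15 and -0.09 log2 with overlap. Hspb11, also known as Ift25, a part of the ciliary transport machinery, averaged -0.78 ± 0.25 log2 CPM in the libraries labelled KO and -0.62 ± 0.19 log2 CPM in those labelled WT and was too low to be tested.

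**Figure D3:**
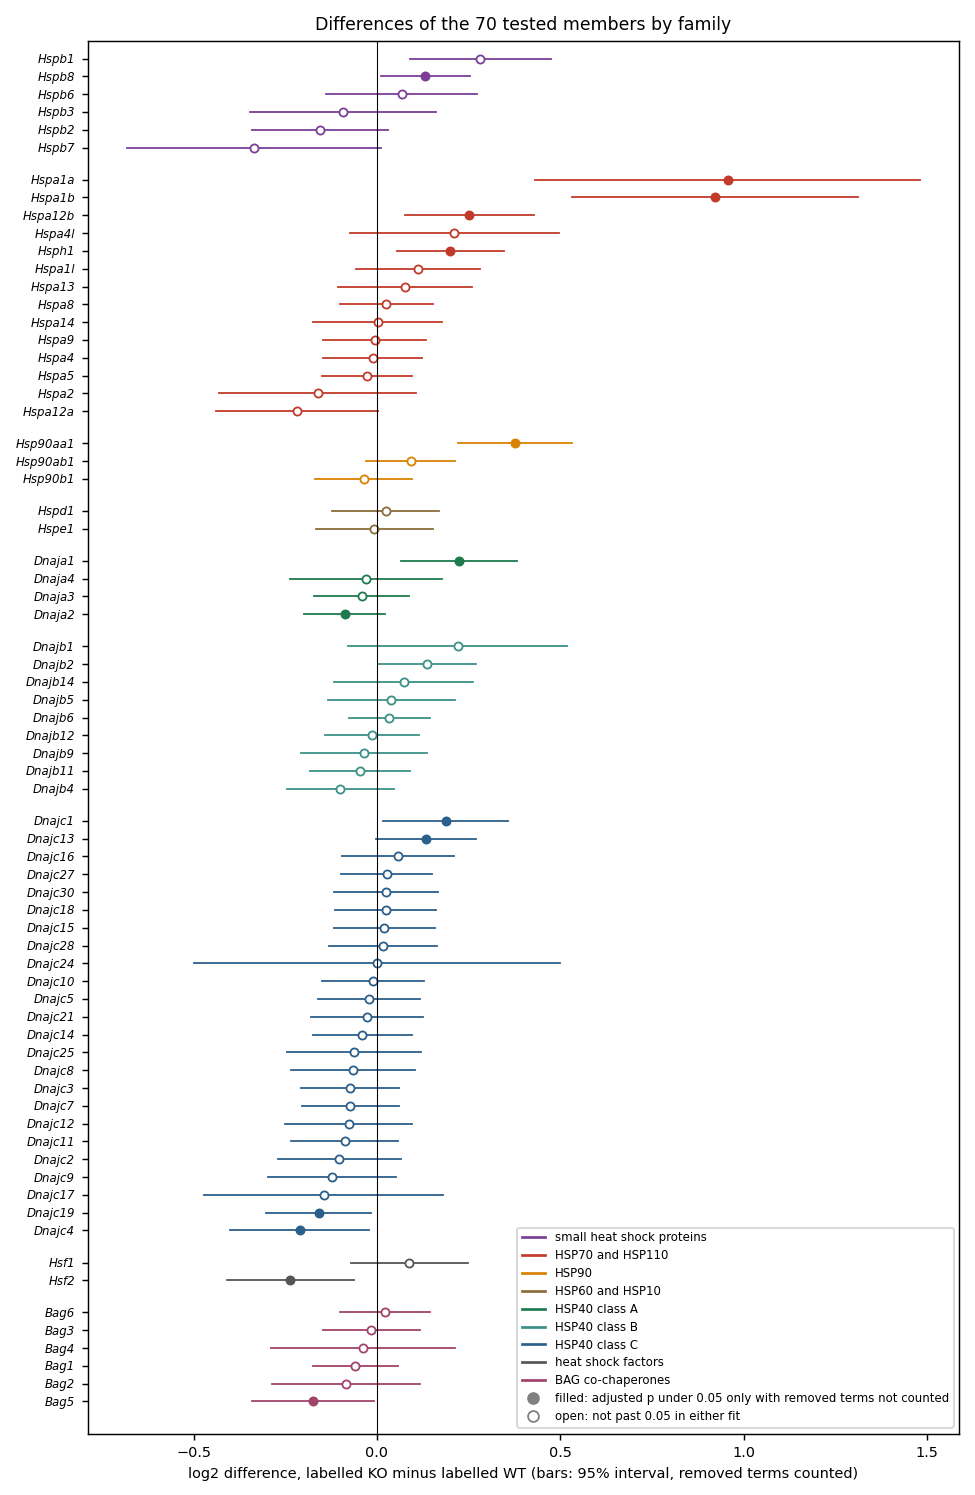
Log2 difference between the libraries labelled KO and those labelled WT with its 95% interval (horizontal axis) for the tested members, grouped by family down the page; filled points passed only with the removed terms not counted, open points in neither fit, and the vertical line marks 0. The intervals of Hspa1a, Hspa1b and Hsp90aa1 lie farthest above 0, and most others include 0.

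The HSP40 co-chaperones centred slightly below 0. Of the 37, 14 had a difference above 0 and 23 below, with a median of -0.03 log2 and a range from -0.21 to 0.22 log2. The 16 that are not named below differed by -0.12 to 0.03 log2, 4 above 0 and 12 below. In 2 of these, Dnajc9 and Dnajc12 (picked out after their values were seen), the libraries labelled KO lay all below those labelled WT.

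In class A, Dnaja1 stood apart from its relatives. It stood at 5.52, 5.40, 5.45, 5.39 and 5.50 log2 CPM in the libraries labelled KO, against 5.21, 5.15, 5.31, 5.35 and 5.12 log2 CPM in those labelled WT. The groups did not overlap, with KO replicate 4 and WT replicate 5 close together. The difference was 0.22 ± 0.07 log2 (SE; adjusted p = 0.319), and it was 0.25, 0.22 and 0.21 log2 within litters 108, 110 and 112. Dnaja2, a second cytosolic class A member, had 134 ± 1.45 CPM in the libraries labelled KO and 142 ± 1.30 CPM in those labelled WT, a small difference of -0.09 ± 0.05 log2 (adjusted p = 0.610) without overlap. Dnaja3, which works in mitochondria, and Dnaja4, a cytosolic member, differed by -0.04 and -0.03 log2.

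In class B, Dnajb1 (HSP40), the main partner of inducible HSP70 in the heat shock response, had 5.76 ± 0.656 CPM in the libraries labelled KO and 4.95 ± 0.581 CPM in those labelled WT (SD, n = 5 each). The groups overlapped, and the difference was 0.22 ± 0.14 log2 (SE; adjusted p = 0.640). Dnajb2, a co-chaperone that hands clients to the proteasome, had 85.6 ± 3.33 CPM in the libraries labelled KO and 77.9 ± 3.44 CPM in those labelled WT, without overlap (0.14 ± 0.06 log2, adjusted p = 0.487). Dnajb6, a Z-disc member whose human gene is mutated in limb-girdle muscular dystrophy, differed by 0.03 ± 0.05 log2, although its groups did not overlap (129 ± 1.12 CPM in the libraries labelled KO and 126 ± 0.657 CPM in those labelled WT). Dnajb5, the class B gene of highest log2 CPM, differed by 0.04 log2, and Dnajb4 by -0.10 log2, both with overlap.

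In class C, Dnajc19, part of the motor that imports proteins into mitochondria, had 22.1 ± 0.483 CPM in the libraries labelled KO and 24.7 ± 0.650 CPM in those labelled WT, without overlap (-0.16 ± 0.06 log2, SE; adjusted p = 0.433). Dnajc4 had 8.37 ± 0.256 CPM in the libraries labelled KO and 9.69 ± 0.388 CPM in those labelled WT, without overlap (-0.21 ± 0.09 log2, SE; adjusted p = 0.440). Dnajc13, an endosomal protein, had 34.9 ± 0.928 CPM in the libraries labelled KO and 31.8 ± 0.973 CPM in those labelled WT, also without overlap (0.13 ± 0.06 log2, SE; adjusted p = 0.506). The differences of these 3 genes were of both signs, and their spreads within each group leave out the removed variation. Dnajc17, a nuclear member, differed by -0.15 ± 0.15 log2. The abundant Dnajc27, Dnajc7 (a cytosolic partner of HSP70 and HSP90) and Dnajc5 (a vesicle protein) differed by 0.03, -0.07 and -0.02 log2.

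Members assigned by a list to the endoplasmic reticulum lay close to 0, and the list may leave out others. Of the 11, 4 had a difference above 0 and 7 below, with a median of -0.01 log2, and summed RNA was 439.4 ± 4.19 CPM in the libraries labelled KO and 443.9 ± 5.60 CPM in those labelled WT (SD, n = 5 each). Dnajb9 and Dnajb11, BiP partners induced when unfolded protein builds up in the reticulum, differed by -0.04 and -0.05 log2, and the membrane proteins Dnajb14 and Dnajc16 by 0.07 and 0.06 log2. The exception was Dnajc1, a membrane-bound BiP partner, which stood at 3.96, 3.97, 3.91, 3.94 and 4.03 log2 CPM in the libraries labelled KO, against 3.77, 3.77, 3.82, 3.66 and 3.85 log2 CPM in those labelled WT. Its groups did not overlap, and the difference was 0.19 ± 0.08 log2 (SE; adjusted p = 0.444). The mitochondrial chaperonin pair Hspd1 (HSP60) and Hspe1 (HSP10) differed by 0.02 and -0.01 log2.

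The heat shock factors differed in sign. Hsf1, the main activator of the heat shock response, had 38.5 ± 1.69 CPM in the libraries labelled KO and 36.2 ± 2.36 CPM in those labelled WT, with overlap (0.09 ± 0.07 log2, SE; adjusted p = 0.743). Hsf2, a related factor that can form mixed trimers with HSF1, stood at 4.08, 4.13, 4.18, 4.22 and 4.01 log2 CPM in the libraries labelled KO, against 4.40, 4.39, 4.28, 4.45 and 4.28 log2 CPM in those labelled WT. The groups did not overlap, and the difference was -0.24 ± 0.08 log2 (SE; adjusted p = 0.327).

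The BAG co-chaperones, most of which release nucleotide from HSP70 and couple it to other machinery, differed by -0.17 to 0.02 log2. Bag3, which links HSPB8 and HSP70 to selective autophagy of Z-disc proteins, had 107 ± 4.47 CPM in the libraries labelled KO and 108 ± 4.02 CPM in those labelled WT, a difference of -0.02 log2 with a 95% interval from -0.15 to 0.12. Bag5 had 12.0 ± 0.187 CPM in the libraries labelled KO and 13.6 ± 0.434 CPM in those labelled WT, without overlap (-0.17 ± 0.08 log2, SE; adjusted p = 0.469). Bag1, Bag2, Bag4 and Bag6 differed by -0.06, -0.09, -0.04 and 0.02 log2, each with overlap.

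**Figure D4:**
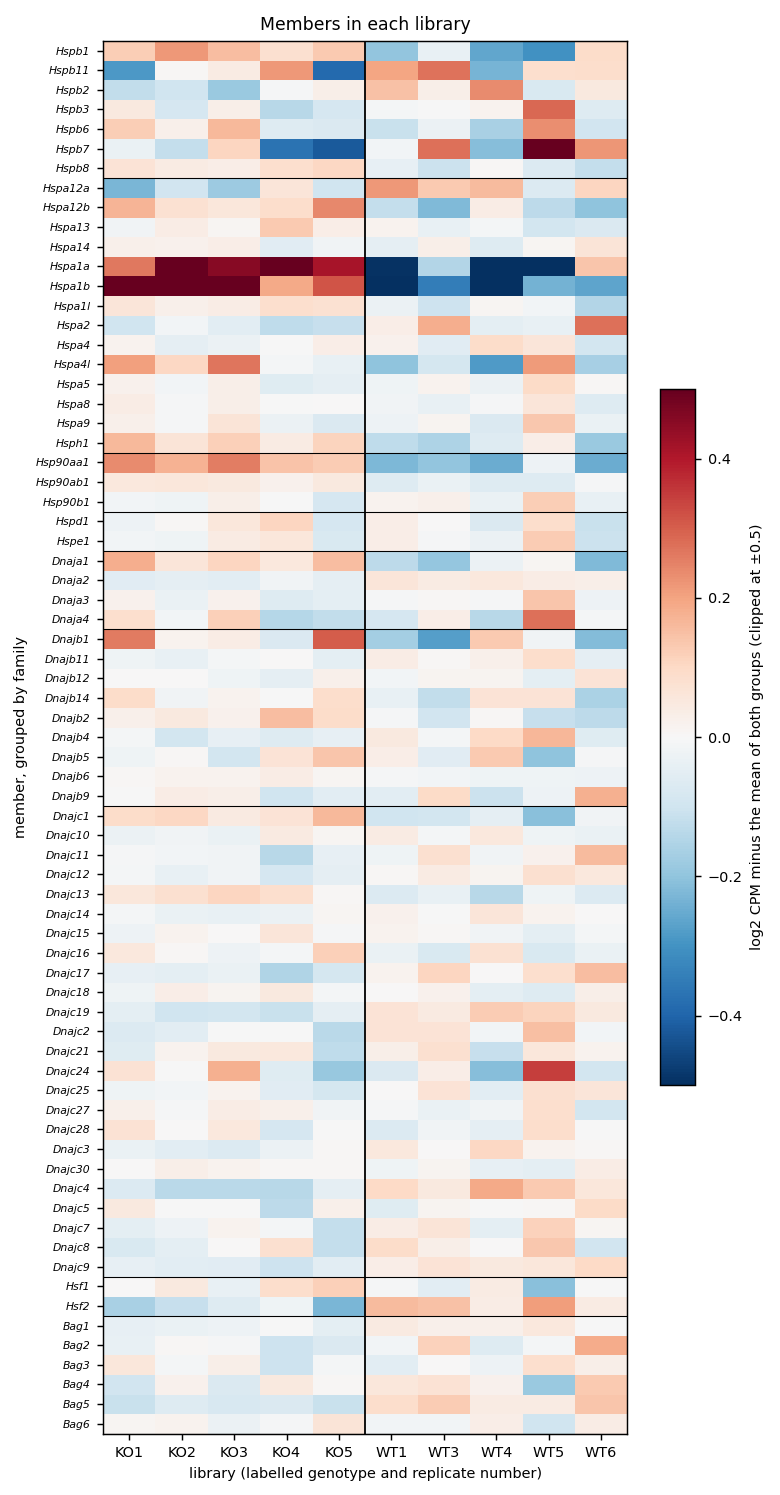
Deviation of each library from the member's mean over the 10 libraries (colour, log2, capped at 0.5) for the 71 members (down the page, by family), with the 5 libraries labelled KO to the left of the 5 labelled WT. Hspa1a, Hspa1b, Hsp90aa1 and Hspb1 are above their means in the libraries labelled KO, and most HSP40 and endoplasmic reticulum members show little contrast.

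The matches in the promoter windows were set beside these differences. Of the 9 members that passed in the higher direction with the removed terms not counted, 8 have a window. Hsp90aa1 has none and was not searched. Of the 8, 5 hold a pair of units (Hspa1a, Hspa1b, Dnaja1, Hsph1 and Hspb8), with the first 2 being copies of nearly the same sequence. A pair was held by 28.1% of members and 14.2% of all tested genes with a window, and the calls come from the fit that made more false calls in simulated data. Of the 5 that passed in the lower direction, 0 hold a pair. Of the 16 members with a pair, the other 11 passed in neither fit and differed by -0.10 to 0.28 log2, 5 above 0 and 6 below. They were Hspb1 (0.28 log2), Hspb6 (0.07), Dnajb6 (0.03), Dnajc27 (0.03), Hspd1 (0.02), Hspe1 (-0.01), Dnajc10 (-0.01), Bag3 (-0.02), Dnaja4 (-0.03), Hspb3 (-0.09) and Dnajb4 (-0.10). A match in the window thus did not go with a difference in each case.

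Other folding genes were described from lists of genes that work beside the members, of which 72 of 74 were measured and tested. None passed with the removed terms counted (limma; 3 stood higher and 2 lower at an unadjusted p below 0.05, against 6.25% and 3.83% of all genes tested). With them not counted 4 passed, each higher in the libraries labelled KO (Xirp1, Atf6, Fkbp4 and Smyd2), a share near the 5.15% of all genes tested. Xirp1, a Z-disc and repair-site protein, differed by 0.23 ± 0.06 log2 (adjusted p = 0.184), and Smyd2, a methyltransferase of HSP90, by 0.18 ± 0.06 log2 (adjusted p = 0.360). Fkbp4 and Fkbp5, the immunophilins that ride on HSP90 with steroid receptors, differed by 0.10 ± 0.05 and -0.39 ± 0.12 log2 (adjusted p = 0.550 and 0.319). Aarsd1, an HSP90 co-chaperone of muscle, differed by -0.21 log2 with overlap.

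Cryab (alpha-B crystallin), a small heat shock protein whose symbol falls outside the rule, stood at 8.32, 8.24, 8.36, 8.16 and 8.14 log2 CPM in the libraries labelled KO, against 8.41, 8.48, 8.36, 8.71 and 8.42 log2 CPM in those labelled WT. The groups touched without overlap, and the difference was -0.24 ± 0.08 log2 (SE; adjusted p = 0.355). Of the 14 chaperonin (CCT) and prefoldin genes, 13 lay below 0 and 0 had an unadjusted p below 0.05 (limma), with a median of -0.08 log2 against -0.00 log2 over all genes tested. Cct5 and Pfdn4 differed by -0.13 and -0.26 log2. In the endoplasmic reticulum, Atf6 and Xbp1, both transcription factors of the unfolded protein response, differed by 0.17 and -0.07 log2, and 10 of 17 genes of that list had a difference above 0. In mitochondria, Clpx and Clpb differed by -0.10 and -0.09 log2, and 7 of 10 genes lay below 0.

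Transcript length moved with the differences over all genes and in the members. In 5 classes of annotated transcript length, from shortest to longest, the median difference over all genes tested was -0.04, -0.03, -0.01, 0.01 and 0.05 log2, and that over the members was -0.06, -0.04, 0.02, -0.01 and 0.07 log2. The part of length in the smaller differences was not tested.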

How the data were processed

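RNA from the tibialis anterior, in 10 libraries, was purified with TRIzol and turned into stranded, oligo-dT primed libraries, per the labels' protocols. Fastp, kallisto and limma are named without versions, per the submitters' processing notes; no build or annotation is named there. The values deposited by the authors are adjusted log2 CPM, in which CPM is a count scaled to its library total, in 1 table. Counts were not used here, so the depth per library is unknown. With genotype fitted, the largest litter difference in any gene was 6.7e-14 log2, which is rounding error, so litter had been removed. Of 6 residual degrees of freedom, 3 dimensions remained, so 3 further terms had been removed, and what these were is not given. The fit assumes that genotype was kept in that step and that the terms were not correlated with genotype. SDs and SEs leave out the removed variation, as do the differences within litters and the overlap of groups. Deviations of libraries from different litters could correlate strongly, as in KO replicate 2 and WT replicate 3 (0.96). Litters and libraries are thus not independent repeats.

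Libraries were grouped by label. Differences (libraries labelled KO minus libraries labelled WT) were fitted with limma 3.58.1 in R 4.3.3 (lmFit, eBayes with a trend), two-sided, with genotype, litter and the 3 removed directions as terms. Benjamini-Hochberg adjustment ran over the 12223 genes with a mean of at least 0 log2 CPM (1269 were below) at a threshold of 0.05. The design text speaks of mice but gives fewer a group than the labels, which do not state that each library stems from a separate animal. The p-values thus describe the spread of these samples, part of which may be technical. CPM are 2 to the deposited log2 value, and CPM per kb divides by the longest GENCODE transcript. The fit was tested on simulated data. Alternatives were the removed terms not counted, litter left out, the replicate number as a block, other filters, no trend, robust eBayes, log2(CPM + 1), median-centring and each library left out.

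The members and lists were chosen with earlier results of these data known, and lists were described by counts and medians with no test. Named were the members past the threshold in either fit, all members outside HSP40, and in each HSP40 class the 3 highest in level and the 3 largest differences in each direction. Of other genes, those past the threshold in either fit and the 2 with the smallest p of each list were named. Proteins were not analysed here.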

Additional observations from a re-analysis of the deposited data

Results flagged for a closer look

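In 110 groups of 5 libraries examined, 6 held a library far from the other 4 by Dixon's test, and chance flags about 1 in 20 groups. KO replicate 4 was such a library in 3 members. It stood at 7.09 log2 CPM for Dnaja2 (the other libraries labelled KO at 7.05 to 7.06), 6.03 log2 CPM for Dnajc5 (6.17 to 6.22) and 9.63 log2 CPM for Hsp90ab1 (9.66 to 9.67). WT replicate 5 was such a library in the other 3. It stood at 6.95 log2 CPM for Dnaja3 (the other libraries labelled WT at 6.79 to 6.82), 5.35 log2 CPM for Hsp90aa1 (5.13 to 5.18) and 2.82 log2 CPM for Hspb3 (2.47 to 2.55). Both libraries are of litter 112.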

How the results depend on the processing

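The count of all genes past the threshold was 41 and that of members was 0. The counts were 1054 genes and 14 members with the removed terms not counted, 2608 and 21 with litter also left out, and 1 and 0 without a variance trend. Robust eBayes gave 56 genes and 2 members (Hsp90aa1, adjusted p = 0.0245, and Hspa1b, 0.0248). With 1 library left out, 8 to 60 genes and 0 to 1 member passed; leaving out WT replicate 1 or KO replicate 3 takes its litter out of the comparison. The fewest genes, 8 and 11, passed without these libraries, and 20 and 17 passed without WT replicates 5 and 6. The other settings gave 34 to 42 genes and 0 members. Lrtm1 missed the threshold without a trend (adjusted p = 0.315) and without KO replicate 3 (0.0789) or WT replicate 1 (0.143), 5 (0.0787) or 6 (0.0529). Replicate numbers share no source in the labels, and deviations of same-numbered libraries correlated at -0.846 to 0.452. A replicate block over 8 libraries, with the removed terms not counted, gave 127 genes and 4 members (Hsp90aa1, 0.0480; Hspa1a, 0.0458; Hspa1b, 0.0305; Hspb1, 0.0360). Of 1023 differences of the members named by rule under alternatives, 33 changed sign, in 14 members whose differences were at most 0.0671 log2. The 16 HSP40 genes outside that rule are not in this count. Unknown depth limits what can be said of low members such as Hspa1a and Hspb11.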
